A study of Mus musculus with 10 samples.

Results

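The genes that carry a cell from G1 into S phase were read out in O9-1 cells that had lost Kat5 or Ep400, the central subunits of the Tip60/Ep400 chromatin complex. The 10 genes were Ccnd1, Ccnd2 and Ccnd3 (D-type cyclins), Ccne1 and Ccne2 (E-type cyclins), Cdk4 and Cdk6 (the kinases that D-type cyclins activate), and Cdkn1b, Cdkn2a and Cdkn2b (inhibitors of cyclin-dependent kinases). They were taken by symbol, as 10 of the 43346 genes of the count table, a choice made with earlier results of these data known and with no threshold on their values. All 10 were in the table, and 8 of them had enough counts for a test, Cdkn2a and Cdkn2b being the exceptions.

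O9-1 is a tetraploid mouse line of cranial neural crest origin, grown here on Matrigel in medium preconditioned by feeder fibroblasts. The libraries came from 4 wildtype cultures (wildtype/1 to wildtype/4), 3 Kat5 ko clones (Kat5/1 to Kat5/3) and 3 Ep400 ko clones (Ep400/1 to Ep400/3). The clones were made with Cas9 and a guide to an exon of Kat5 in front of the acetyltransferase domain or to the ATP binding site of Ep400, and were sorted and harvested at an early passage. Each clone was grown from a single sorted cell and is a line of its own. The wildtype libraries are labelled as biological replicates of O9-1, and none is labelled as a clone. Loss of the gene and growth from a single cell therefore cannot be told apart in the comparisons with wildtype. By the study's account of the clones, every Kat5 allele carried a predicted frameshift, whereas some Ep400 ko clones kept alleles with a short in-frame deletion. Both knockouts were compared with the same wildtype libraries, so these comparisons are not independent of each other.

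D-type cyclins bind CDK4 and CDK6, E-type cyclins bind CDK2, and the active kinases phosphorylate the retinoblastoma proteins so that E2F factors can switch on genes of DNA replication. Cdkn1b encodes p27, which inhibits cyclin E-CDK2. Cdkn2a encodes p16Ink4a, an inhibitor of CDK4 and CDK6, and from a second start the unrelated p19Arf, which stabilises p53, while Cdkn2b next to it encodes p15Ink4b. The Cdkn2a-Cdkn2b locus is often deleted or silenced in immortal mouse lines. Kat5 (Tip60) acetylates histones and Ep400 exchanges H2A.Z, and E2F and Myc are among the factors that recruit their complex to promoters.

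Promoter stretches are shown for Ccne1 and Cdk6, the members that passed a test below, and for both starts of Cdkn2a, because the count of this gene cannot tell its products apart. They are RefSeq promoters on GRCm38.p6 (the mm10 build of the files), read 5′ to 3′ on the strand of the gene from 250 bases before the start. They end 51 bases before it, or 162 bases before it for Cdk6, where an annotated exon of a longer transcript begins. Capitals mark an E-box (CACGTG, a palindrome that Myc and its relatives bind) or 1 of 4 E2F motifs (TTTCGCGC, TTTGGCGC, TTTCCCGC, TTTGCCGC). These motifs were chosen with the sequences in view and were searched on both strands of the 250 bases.
Ccne1, chr7:38107541-38107740, minus strand: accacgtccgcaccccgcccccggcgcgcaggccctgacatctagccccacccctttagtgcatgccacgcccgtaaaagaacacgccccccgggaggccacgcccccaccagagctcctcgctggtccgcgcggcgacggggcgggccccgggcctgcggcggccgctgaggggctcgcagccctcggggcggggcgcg
Cdk6, chr5:3343643-3343731, plus strand: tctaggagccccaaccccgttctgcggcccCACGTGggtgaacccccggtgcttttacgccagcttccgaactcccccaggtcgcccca
Cdkn2a, p19Arf start, chr4:89294670-89294869, minus strand: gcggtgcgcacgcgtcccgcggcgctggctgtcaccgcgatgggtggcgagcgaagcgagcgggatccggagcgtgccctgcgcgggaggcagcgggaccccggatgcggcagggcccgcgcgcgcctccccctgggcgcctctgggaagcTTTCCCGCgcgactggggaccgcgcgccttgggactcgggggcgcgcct
Cdkn2a, p16Ink4a start, chr4:89282243-89282442, minus strand: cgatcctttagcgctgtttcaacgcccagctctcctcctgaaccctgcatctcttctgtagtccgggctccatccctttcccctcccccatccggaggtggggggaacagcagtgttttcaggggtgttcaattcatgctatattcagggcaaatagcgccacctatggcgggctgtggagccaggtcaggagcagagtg

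RefSeq promoters were listed for 7 of the 10 genes, 9 promoters in all, and not for Ccnd1, Ccnd2 or Ccne2. One of the 4 E2F motifs stood in 1 of these 9, at the p19Arf start 99 bases upstream, against 611 of all 32851 promoters (1.86%). An E-box stood in 2 of the 9, against 1978 of all promoters (6.02%). The promoter of Cdk4 held it 4 times, 172, 118, 98 and 11 bases before the start, and that of Cdk6 once, 220 bases before the start. Other spellings of these motifs and other stretches were not searched.

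Library totals ranged from 30968945 to 48301792 counts, so that 3 counts, the floor used for a single library, corresponded to 0.0661 to 0.0989 counts in 1000000 (CPM). Levels are CPM scaled by the trimmed mean of M values over all 10 libraries. The labels held: Kat5 stood at 48.81 to 57.48 CPM in wildtype and at 16.41 to 23.16 in Kat5 ko (log2 fold change -1.40, SE 0.172, adjusted p = 0.0207 by edgeR), and Ep400 at 156.7 to 165.2 in wildtype and at 54.72 to 61.4 in Ep400 ko (-1.45, SE 0.119, adjusted p = 0.0012). Of the 16 markers of cranial neural crest, the defining Sox10 and Foxd3 had 0 counts in all 10 libraries. Summed crest markers stood at 818 to 1020 CPM in wildtype, 1050 to 1220 in Kat5 ko and 1040 to 1160 in Ep400 ko. In Ep400 ko 3 of the 14 crest markers tested rose (Snai2, Tfap2a and Pax3), against 8% of all genes, and 0 were called lower. By sign, 9 of the 14 were higher and 5 lower. Every Ep400 ko clone lay above the wildtype range in 5 of the 14, against 16.1% of all genes. In 2 of the 14 every such clone lay below it, against 14.1%. The 5 smooth muscle markers summed to 5.87 to 16.7 CPM in wildtype, 0.461 to 685 in Kat5 ko, Kat5/1 being the high one, and 2.34 to 58.8 in Ep400 ko. In Ep400 ko the 4 chondrocyte markers summed to 0.199 to 0.704 CPM against 5.77 to 24.9 in wildtype, with 1 tested (Acan, which fell). The 4 epithelial markers summed to 0.516 to 0.921 against 1.62 to 4.7, with 3 tested (Krt8 and Krt18 fell). The 4 of endothelium and blood summed to 0.235 to 0.562 against 0.925 to 1.68, with 1 tested (Pecam1, which fell). The 5 of neuron and glia summed to 11.4 to 24.6 against 4.17 to 6.96, with 2 tested (Tubb3 rose). Of all genes 5.72% fell and 8% rose. In Kat5 ko these sums were 3.72 to 56.4 (chondrocyte), 0.309 to 0.827 (epithelium), 0.264 to 0.926 (endothelium and blood) and 2.64 to 11.7 (neuron and glia). All 3 epithelial markers tested lay below the wildtype range in every Kat5 ko clone, against 10.2% of all genes. The epithelial fall was therefore not particular to Ep400 ko. In Kat5 ko 0 markers passed by edgeR, while 8 had an unadjusted p under 0.05 (22.3% of all genes) and DESeq2 called 3 (11%). Those tested were 11 of crest, 2 of smooth muscle, 2 of osteoblast and 1 of chondrocyte. A further 2 were of neuron and glia, 3 of epithelium and 1 of endothelium and blood. The 5 osteoblast markers summed to 53.7 to 92.8 CPM in wildtype, 58.1 to 98.6 in Kat5 ko and 66.2 to 124 in Ep400 ko. In Kat5 ko DESeq2 called 1 of the 2 tested. The part of these markers in the results below was not tested. Some libraries stood apart: wildtype/3 had Msx1 at 48.98 CPM against 5.26 to 7.46 in the other wildtype libraries, and Ep400/3 was lowest of all libraries in all 16 E2F targets listed further on, with the highest mitochondrial share of the libraries (3.24% against 0.893 to 2.43%) and the highest share of counts in its 20 top genes (10.8% against 7.15 to 10%). The part of these shares was not tested. Leaving out 1 library moved the number of genes called in Kat5 ko from 1 (without wildtype/1 or wildtype/4) to 2654 (without Kat5/1), 19.4% of the genes tested in that fit.

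The p-values measure the spread among these cultures and clones. With 13434 genes tested, 84 (0.625%) passed an adjusted p of 0.05 in Kat5 ko against wildtype, 0.179% being higher and 0.447% lower. In Ep400 ko against wildtype 13.7% of 13836 genes passed, 8% higher and 5.72% lower, and in Ep400 ko against Kat5 ko 7.05% of 13587, 4.22% higher and 2.83% lower. An unadjusted p under 0.05 was found for 22.3%, 32.2% and 32.4% of genes in these comparisons, and DESeq2 called 11%, 22.7% and 22.7% of those it adjusted. The median log2 fold change over all genes tested was 3.24e-05, 0.0428 and 0.00627 in these comparisons.

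Of the 8 members tested, 0 passed in Kat5 ko against wildtype by edgeR, while 3 had an unadjusted p under 0.05 (22.3% of all genes did) and 3 passed by DESeq2 (11% of all genes). In Ep400 ko against wildtype 1 of 8 passed (13.7% of all genes did), Cdk6, which fell to 0.4 of wildtype. DESeq2 also called 1 of 8 there, and 22.7% of all genes. In Ep400 ko against Kat5 ko 1 of 8 passed (7.05% of all genes did), Ccne1, at 0.257 of its level in Kat5 ko. By DESeq2 4 passed, and 22.7% of all genes. The median log2 fold change of the members was 0.46 in Kat5 ko, -0.19 in Ep400 ko and -0.81 between the knockouts. In Kat5 ko 3 of 8 had every clone above the wildtype range, against 9.67% of all genes tested, and 0 of 8 had every clone below it, against 10.2%. In Ep400 ko 0 of 8 lay above the wildtype range throughout, against 16.1%, and 1 of 8 below it, against 14.1%. Between the knockouts 4 of 8 had every Ep400 ko clone below the Kat5 ko range, against 18%, and 0 of 8 above it, against 20.5%. In bulk RNA, fewer cycling cells and less RNA per cell cannot be told apart.

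**Figure D1:**
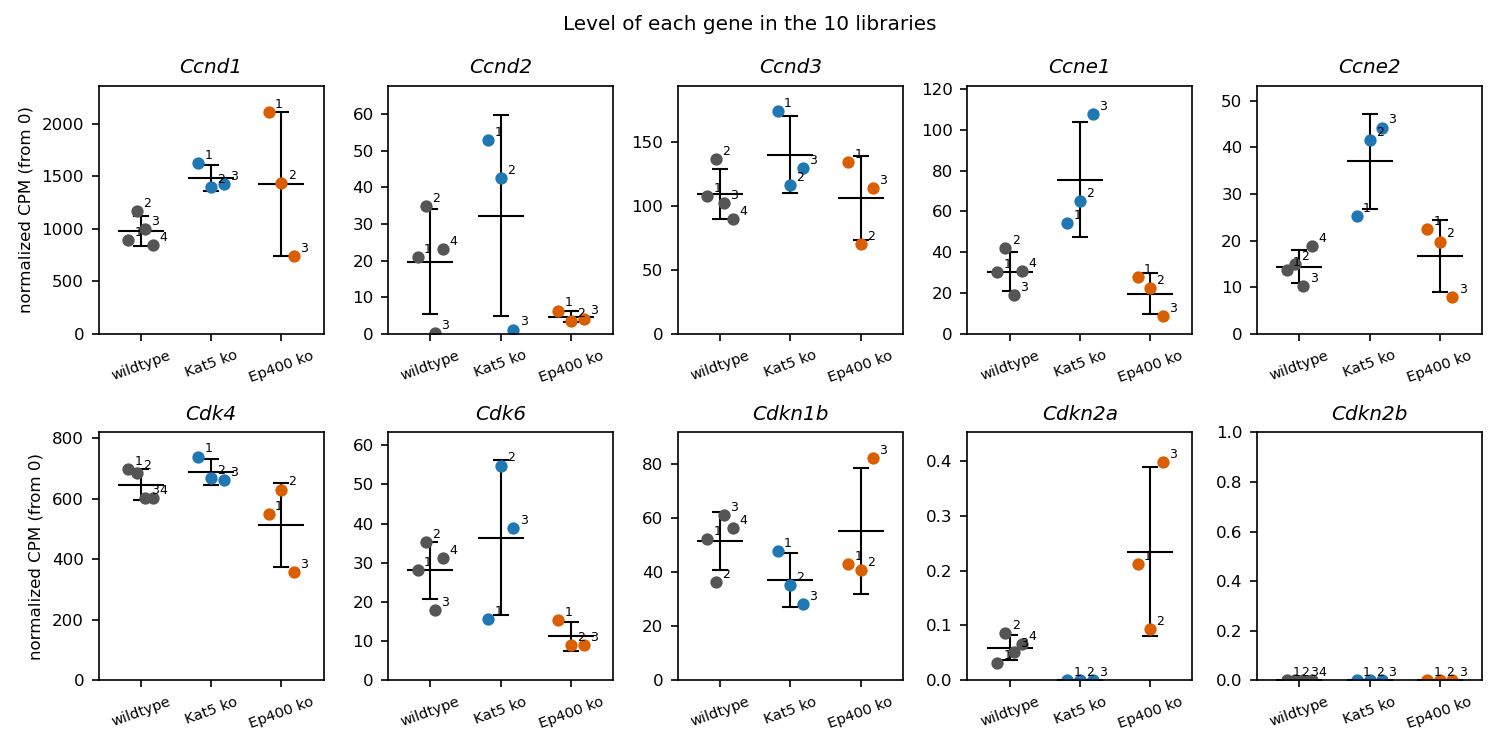
Level of each of the 10 members in every library, in CPM on a linear axis from 0, with points for libraries numbered as in the text and bars for the mean ± SD of 4 wildtype, 3 Kat5 ko and 3 Ep400 ko libraries. Ccnd1, Ccne1 and Ccne2 lay higher in every Kat5 ko clone than in any wildtype library, Cdk6 lay lower in every Ep400 ko clone, and Cdkn2b was at 0 throughout.

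**Figure D2:**
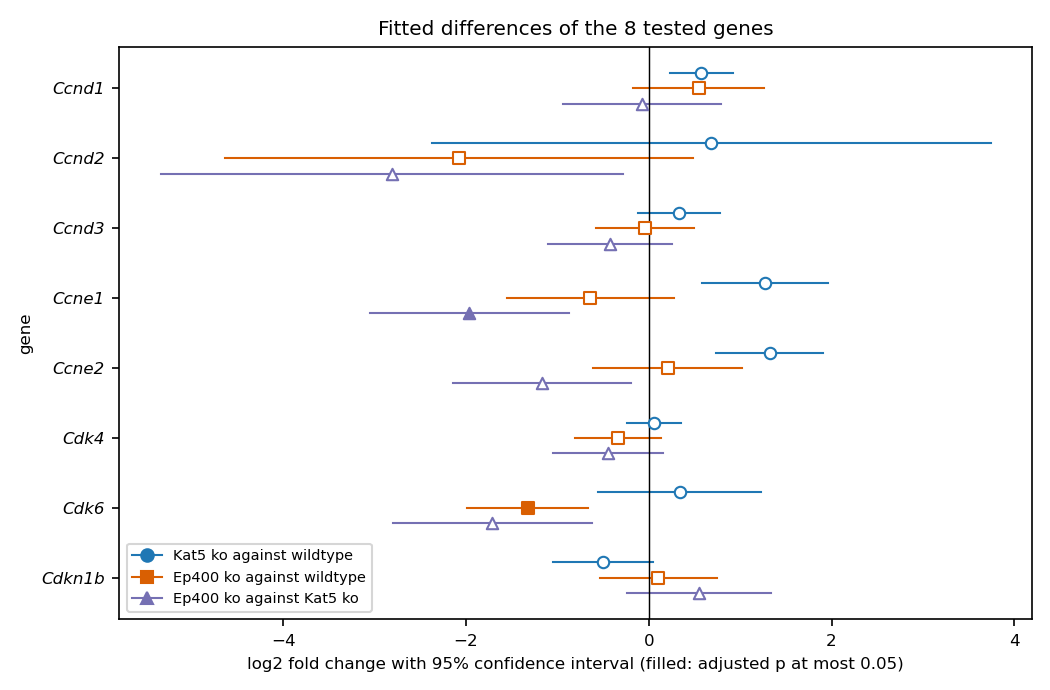
Log2 fold change of the 8 members tested in the 3 comparisons, with the 95% confidence interval as a bar and filled points for an adjusted p of at most 0.05. The filled points are Cdk6 in Ep400 ko against wildtype (-1.32) and Ccne1 in Ep400 ko against Kat5 ko (-1.96).

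Levels between genes were compared per kilobase of exon. Ccnd1, Ccnd2, Ccnd3, Ccne2 and Cdk4 each overlap a gene on the opposite strand, and how the counting treated strand is not given, so their levels may include reads of that gene. In wildtype, Ccnd1 (207 ± 30.2 CPM per kb, SD, n = 4) and Cdk4 (199 ± 15.9) led and overlapped each other. Ccnd3 (12.4), Ccne1 (11.5) and Cdkn1b (11.3) followed with overlapping ranges, then Ccne2 (4.12), Ccnd2 (2.1) and Cdk6 (2.01), again overlapping, then Cdkn2a at 0.0506 and Cdkn2b at 0. Ccnd1 and Cdk4 were both at percentile 98.6 of 13992 genes by this level, Ccnd3 at 70.8 and Cdk6 at 32.1. In the Kat5 ko clones the order differed, with Ccne1 (28.4 CPM per kb) placed directly below Cdk4 and above Ccnd3 (16) without overlap, and with Ccne2 (10.6) next to Cdkn1b (8.16). In the Ep400 ko clones Cdkn1b (12.2), Ccnd3 (12.1), Ccne1 (7.38) and Ccne2 (4.76) overlapped, each with the next, while Cdk6 (0.801) and Ccnd2 (0.497) stood well below.

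Ccnd1, on chr7:144929931-144939925 (minus strand, mm10), encodes cyclin D1. Its level was 895.7, 1168, 997.3 and 846 CPM in wildtype, 1628, 1400 and 1429 in Kat5 ko, and 2113, 1437 and 739.2 in Ep400 ko. Every Kat5 ko clone lay above every wildtype culture, whereas the Ep400 ko clones held both the highest and the lowest library of all. The Kat5 ko difference, 0.58 on the log2 scale (SE 0.152, 95% interval 0.231 to 0.922), missed the threshold by edgeR (adjusted p = 0.0923) and passed by DESeq2 (0.00913). The Ep400 ko difference was of like size with a wider error (0.55, SE 0.314, adjusted p = 0.26), and it was 0.86 (adjusted p = 0.0316) without Ep400/3 but 0.15 (adjusted p = 0.734) without Ep400/1. The knockouts differed by -0.08 (95% interval -0.94 to 0.789). Cyclin D1 transcripts made up 92.1 to 97.3% of the summed D-type cyclin level per kb in each of the 10 libraries.

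Ccnd2 (cyclin D2), on chr6:127125162-127152193 (minus strand), was the least even of the 8 members tested in wildtype and Kat5 ko, though not in Ep400 ko. It stood at 20.98, 34.76, 0.1305 and 23.04 CPM in wildtype, at 52.97, 42.58 and 1.168 in Kat5 ko, and at 6.356, 3.531 and 4.132 in Ep400 ko. One wildtype culture and one Kat5 ko clone were almost without it, wildtype/3 with 5 counts and Kat5/3 with 53, while the other libraries of these groups lay above every Ep400 ko clone. With all libraries the Ep400 ko difference was -2.08 (SE 1.13, adjusted p = 0.236), and without wildtype/3 it was -2.5 (adjusted p = 0.00658). That was the only 1 of 7 fits leaving out a library in which Ccnd2 passed, and 12.1% of all genes passed in it. Wildtype/3 was also the wildtype library with the highest Msx1. The Kat5 ko difference was 0.68 with an interval from -2.37 to 3.74.

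Ccnd3 (cyclin D3), on chr17:47505051-47599691 (plus strand), overlapped between all groups, with 89.73 to 136.7 CPM in wildtype, 116.3 to 174.1 in Kat5 ko and 69.99 to 134.2 in Ep400 ko. Neither difference from wildtype passed the test (0.33, SE 0.196, adjusted p = 0.351 and -0.04, SE 0.235, adjusted p = 0.914), with intervals of -0.117 to 0.779 and -0.58 to 0.491. The median of all genes on chromosome 17 was shifted by -0.33 in Kat5/3, -0.33 in Ep400/2 and -0.2 in Ep400/3 on the log2 scale. With each gene measured against its chromosome, the Ep400 ko difference changed sign to 0.08.

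Ccne1, on chr7:38097984-38107534 (minus strand), encodes cyclin E1. It stood at 30.4, 42.1, 19.1 and 30.64 CPM in wildtype, at 54.12, 65.28 and 107.6 in Kat5 ko, and at 27.79, 22.62 and 8.538 in Ep400 ko. The Kat5 ko clones were the 3 highest libraries, and Ep400/3 was the lowest of the 10. Against wildtype the mean difference in Kat5 ko was 1.28 (SE 0.301, 95% interval 0.588 to 1.96, adjusted p = 0.08 by edgeR, 0.00245 by DESeq2). Without Kat5/1 it was 1.47 with an adjusted p of 0.0198, in the fit where 19.4% of all genes passed, and without Kat5/3 it was 0.95 (adjusted p = 0.22). The single fit of all 10 libraries gave an adjusted p of 0.125. In Ep400 ko it was -0.64 (SE 0.4, adjusted p = 0.299), the ranges overlapping, and -0.98 to -0.28 when single libraries were left out.

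Directly compared, cyclin E1 transcripts were lower in Ep400 ko than in Kat5 ko by a log2 fold change of -1.96 (SE 0.467, 95% interval -3.05 to -0.871, adjusted p = 0.05). This is the threshold itself. Leaving out single libraries gave -2.3 to -1.6 for Ccne1, and the call was kept only without Kat5/1 (adjusted p = 0.0373), with adjusted p-values of 0.0595 to 0.158 in the other 5 fits, 0.0971 of them without Ep400/3. DESeq2 gave an adjusted p of 0.00072. Its promoter stretch above, from a window with 76% G and C, held neither motif. Chromosome 7, which also carries Ccnd1, was shifted by 0.13 in Kat5/1.

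Ccne2 (cyclin E2), on chr4:11191351-11204779 (plus strand), moved with Ccne1 across libraries. Its levels were 13.6, 15, 10.25 and 18.8 CPM in wildtype, 25.3, 41.49 and 44.25 in Kat5 ko, and 22.38, 19.78 and 7.791 in Ep400 ko. Again every Kat5 ko clone lay above the wildtype range, and Ep400/3 was lowest while Ep400/1 and Ep400/2 exceeded every wildtype library. The Kat5 ko difference of 1.33 (SE 0.257, 95% interval 0.741 to 1.91) had an adjusted p of 0.0648 by edgeR and 0.000225 by DESeq2. It passed without the filter on low counts (0.0279) and without Kat5/1 (1.54, adjusted p = 0.00716). It did not pass in the single fit (0.099) or when any other library was left out (0.0942 to 0.192, with 1.19 without Kat5/3). Ep400 ko differed from wildtype by 0.21 (SE 0.359, adjusted p = 0.727) and from Kat5 ko by -1.17 (SE 0.416, adjusted p = 0.104).

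Summed per kb, the E-type cyclins reached 10.1 to 20.1 CPM in wildtype, 27.6 to 53.1 in Kat5 ko and 5.44 to 16.8 in Ep400 ko. Ccne2 contributed 21.3 to 31.8% of this sum in wildtype, 23.8 to 32.6% in Kat5 ko and 38 to 41% in Ep400 ko, the Ep400 ko clones lying above all others. Over the 10 libraries, which share their groups, the log2 levels of Ccne1 and Ccne2 had a Pearson correlation of 0.891, and each ran against Cdkn1b, at -0.868 and -0.844.

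Cdk4, on chr10:127063534-127067920 (plus strand), made up 98.1 to 99.7% of the summed CDK4 and CDK6 transcripts per kb. It was the steadiest member in wildtype and Kat5 ko, with 699.5, 684.6, 604.1 and 602.1 CPM and 739.9, 669.2 and 660.9 CPM. The Ep400 ko clones had 548.6, 630.9 and 359.1 CPM, and Ep400/3 was again the lowest. The test gave 0.06 in Kat5 ko (95% interval -0.233 to 0.358, adjusted p = 0.812), which was -0.01 when set against its chromosome. In Ep400 ko it gave -0.34 (-0.803 to 0.129, adjusted p = 0.285).

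Cdk6, on chr5:3341485-3531008 (plus strand), was the member that passed against wildtype. Its levels were 28.04, 35.17, 17.93 and 31.1 CPM in wildtype, 15.52, 54.8 and 38.81 in Kat5 ko, and 15.46, 9.093 and 9.086 in Ep400 ko. All Ep400 ko clones lay below all wildtype libraries, and the Kat5 ko clones spread across the whole range, Kat5/1 standing beside the highest Ep400 ko clone. Cdk6 fell by 1.32 on the log2 scale in Ep400 ko (SE 0.291, adjusted p = 0.0221 by edgeR). Leaving out single libraries gave -1.63 to -1.2, with the call kept in 2 of 7 fits, those without wildtype/3 and without Ep400/1, and adjusted p-values of 0.0556 to 0.0656 in the others. With all 10 libraries in 1 fit the adjusted p was 0.0663, and with DESeq2 0.00025.

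In Kat5 ko the Cdk6 difference was 0.34 (SE 0.391, 95% interval -0.554 to 1.23, adjusted p = 0.641), and it turned to -0.07 when Kat5/2 was left out. The knockouts differed by -1.71 (SE 0.466, adjusted p = 0.0616 by edgeR, 0.00443 by DESeq2), with an adjusted p of 0.0217 without Kat5/1, a fit in which 18% of all genes passed. Among 10929 other genes with a mean count of at least 100, Ptcd2, Cpsf3 and Tars2 had the log2 levels most correlated with Cdk6 over the 10 libraries (0.984, 0.983 and 0.975). Cpsf3, which encodes the endonuclease of the pre-mRNA cleavage complex, stood at 86.16 to 105.3 CPM in wildtype, 71.79 to 124.4 in Kat5 ko and 64.68 to 76.32 in Ep400 ko.

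Cdkn1b (p27), on chr6:134920401-134925513 (plus strand), overlapped between groups. Its levels were 52.18, 36.38, 61.06 and 56.42 CPM in wildtype, 47.87, 35.33 and 28.3 in Kat5 ko, and 43.02, 40.75 and 82.22 in Ep400 ko. Ep400/3, lowest in 5 of the 8 members tested, was highest here. The differences from wildtype were -0.50 (SE 0.239, 95% interval -1.05 to 0.0475, adjusted p = 0.258) in Kat5 ko and 0.10 (SE 0.28, -0.537 to 0.742, adjusted p = 0.83) in Ep400 ko.

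Cdkn2a, on chr4:89274471-89294653 (minus strand), was at the limit of detection. The wildtype libraries had 1, 3, 2 and 3 counts, the Kat5 ko clones 0, 0 and 0, and the Ep400 ko clones 9, 3 and 16. Only Ep400/1 and Ep400/3 exceeded 3 counts. Summed over the 3 Kat5 ko libraries, 0 counts allow a level of up to 0.0268 CPM (3 counts over the group). This limit covers counting error only. The summed wildtype libraries had 0.0602 CPM from 9 counts, which is 2.25-fold this limit. That ratio leaves out the counting error of the wildtype counts and the spread between clones, so it is not a lower bound on the difference. The summed counts of Ep400 ko (28) and wildtype (9) gave a CPM ratio of 4.05 with a 95% counting interval of 1.86 to 9.76, which leaves out the spread between clones. In fits without the filter on low counts, Kat5 ko against wildtype had an unadjusted p of 0.0168 and an adjusted p of 0.198 by edgeR, so this difference did not pass. The adjusted p of Ep400 ko was 0.162 against wildtype and 0.0434 against Kat5 ko, whose libraries were all at 0. Cdkn2b, 11.6 kb away on chr4:89306299-89311039 (minus strand), had 0 counts in all 10 libraries.

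The locus around Cdkn2a was not empty of reads. Within 500 kb the table holds 37 genes, of which 22 were at 0 in all libraries and 28 had at most 3 counts in every library, with 8 interferon genes among the 37. Mtap (methylthioadenosine phosphorylase), 93.4 kb away, had 17160 to 34384 counts. The non-coding Gm12606, 1.07 kb away on the same strand, had 4406, 4513, 5197 and 6333 counts in wildtype, 4574, 1689 and 2548 in Kat5 ko, and 7662, 8169 and 7817 in Ep400 ko. Reads of the 2 genes this close may be assigned to either, and this was not tested.

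Of the 6 genes of this window that were tested, 2 rose and 1 fell in Ep400 ko against wildtype, where 8% and 5.72% of all genes did. At a mean count of at least 100, 4 were tested and 1 passed. In Kat5 ko 0 passed by edgeR or DESeq2, with 2 at an unadjusted p under 0.05 (22.3% of all genes). Dmrta1, a DM domain transcription factor gene 385 kb away, had 13, 12, 36 and 7 counts in wildtype, 8, 2 and 2 in Kat5 ko, and 120, 147 and 96 in Ep400 ko, and rose by 2.81 (SE 0.586, adjusted p = 0.0183), a call lost in 2 of 7 fits that left out a library. Gm12606 rose by 0.62 (SE 0.151, adjusted p = 0.0308), a call lost without the filter (0.0526), with the chromosome offset (0.0528), in the single fit of all libraries (0.164) and in 5 of 7 fits that left out a library. The non-coding Gm12603 fell by 2.47 (SE 0.54, adjusted p = 0.0215), from 29 to 75 counts in wildtype to 4 to 14 in Ep400 ko, a call lost in 4 of 7 such fits.

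**Figure D3:**
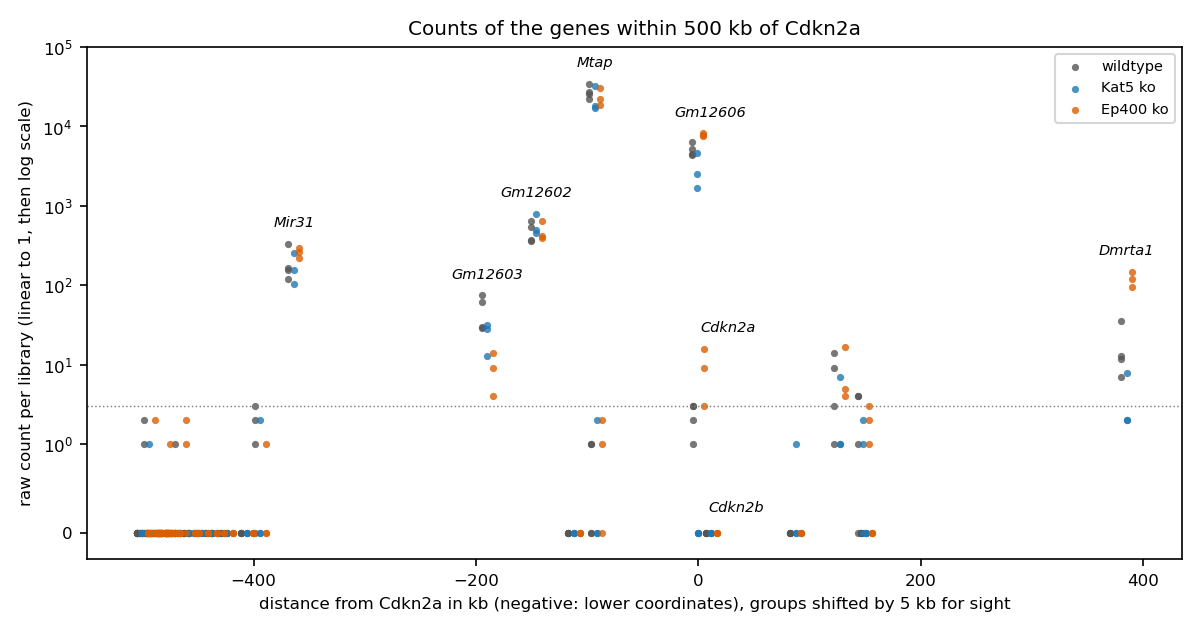
Raw counts per library, on a symmetric log axis, of the genes within 500 kb of Cdkn2a against their distance in kb, coloured by group, with a dotted line at the floor of 3 counts. Cdkn2a and Cdkn2b lie at or near 0 between Gm12606 at 1689 to 8169 counts and Dmrta1, which reaches 96 to 147 counts in Ep400 ko only.

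The regulators of the locus were described by 14 genes, 13 of them tested. They were the Polycomb genes Bmi1, Ring1, Rnf2, Cbx7, Cbx8, Ezh2, Eed and Suz12, with Trp53, Mdm2, Kdm6b, Dmtf1, Tbx2 and Tbx3. In Kat5 ko 0 passed by edgeR or DESeq2, with 2 at an unadjusted p under 0.05 (22.3% of all genes). In Ep400 ko 1 of the 13 rose, Ring1, a share close to the 8% of all genes that rose. Ring1, a subunit of Polycomb repressive complex 1, stood at 16.3 to 20.53 CPM in wildtype, 10.34 to 16.91 in Kat5 ko and 24.44 to 39.93 in Ep400 ko (0.84, SE 0.191, adjusted p = 0.0244, kept in 3 of 7 fits that left out a library). Between the knockouts Ring1 was higher in Ep400 ko (1.23, adjusted p = 0.0466, lost in 5 of 6 such fits). Bmi1, of the same complex, was lower in Ep400 ko than in Kat5 ko (-0.89, adjusted p = 0.0409) and was named after its value was seen.

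The other CDK inhibitors were Cdkn1a (p21), Cdkn1c (p57), Cdkn2c (p18Ink4c) and Cdkn2d (p19Ink4d), and 1 of the 4 passed in each knockout. Of all genes, 0.625% passed in Kat5 ko and 13.7% in Ep400 ko. Cdkn1c fell in Kat5 ko, from 4.471, 4.132, 17.14 and 3.181 CPM in wildtype to 0.468, 0.264 and 0.22, while Ep400 ko had 3.26, 3.00 and 4.655. The log2 fold change was -4.53 (SE 0.768, adjusted p = 0.0493) and -3.63 without wildtype/3, and 2 of 7 fits that left out a library kept the call. Cdkn2c, an inhibitor of CDK4 and CDK6, rose in Ep400 ko, from 24.75, 23.64, 23.25 and 19.46 CPM to 55.09, 94.33 and 38.98 (1.46, SE 0.273, adjusted p = 0.0127), in all 7 such fits. The Kat5 ko clones had 32.88, 15.82 and 12.87 CPM of Cdkn2c, on both sides of wildtype.

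Cdkn1a, a p53 target, averaged 344.7 CPM in wildtype. It stood at 520, 174.6 and 366 in Kat5 ko and at 333.9 to 354.3 in Ep400 ko, with differences of 0.01 (adjusted p = 0.987) and -0.01 (adjusted p = 0.958) that changed sign under library size scaling. Cdkn2d differed by -0.41 (adjusted p = 0.358) and 0.05 (adjusted p = 0.881), the latter changing sign against its chromosome. The median over the list was -0.29 in Kat5 ko and 0.02 in Ep400 ko.

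The 13 genes of the RB family and the E2F factors had 0 calls in the 3 comparisons by edgeR. Unadjusted p-values under 0.05 were found for 5 in Kat5 ko, 3 in Ep400 ko and 6 between the knockouts (22.3%, 32.2% and 32.4% of all genes), and DESeq2 called 4, 0 and 4 (11%, 22.7% and 22.7%). Rb1 differed by -0.29 (adjusted p = 0.558) and 0.40 (0.295) in Kat5 ko and Ep400 ko, Rbl1 (p107) by 0.08 (0.78) and -0.49 (0.188), and Rbl2 (p130) by -0.65 (0.111) and 0.07 (0.818). Of the 13, 4 had every Kat5 ko clone above the wildtype range and 1 below it, against 9.67% and 10.2% of all genes. The 1 below was Rbl2, at 30.48 to 45.58 CPM in Kat5 ko and 47.28 to 65.57 in wildtype. The activator E2f1 differed by 0.14 (0.637) and 0.53 (0.191), the repressor E2f4 by 0.15 (0.728) and -0.56 (0.108), and their partner Tfdp1 by 0.55 (0.167) and -0.54 (0.159).

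Among 12 other cell cycle cyclins, kinases and CDC25 phosphatases, 11 were tested. Cdc25a, the phosphatase that activates CDK2, rose in Kat5 ko, from 37.46, 40.49, 32.09 and 35.19 CPM in wildtype to 59.99, 75.83 and 83.92 (0.98, SE 0.154, adjusted p = 0.045). The Ep400 ko clones had 35.89, 29.93 and 15.11 CPM, and differed from wildtype by -0.43 (adjusted p = 0.3) and from Kat5 ko by -1.46 (adjusted p = 0.0464). The Cdc25a call against wildtype was kept in 1 of 7 fits that left out a library, and the call between the knockouts in 1 of 6. Cdk2 itself differed by 0.41 (adjusted p = 0.103) and -0.40 (adjusted p = 0.169). In Ep400 ko 0 of the 11 passed by edgeR or DESeq2, with 2 at an unadjusted p under 0.05 (32.2% of all genes).

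The genes for the turnover of G1 cyclins and p27, SCF ubiquitin ligase subunits and F-box proteins, had 0 calls by edgeR among 12 tested in each comparison. At an unadjusted p under 0.05 there were 1, 3 and 1 (22.3%, 32.2% and 32.4% of all genes). DESeq2 called 0, 0 and 1 (11%, 22.7% and 22.7% of all genes). Their most abundant members differed from wildtype in Kat5 ko and Ep400 ko by 0.29 and 0.19 (Skp1a) and by 0.16 and -0.09 (Cul1), without a call. The list median was 0.15 and -0.01.

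The 16 E2F targets of the G1/S transition, among them the MCM helicase genes, Pcna, Rrm1 and Cdc6, had 0 calls in the 3 comparisons by edgeR. At an unadjusted p under 0.05 there were 7, 2 and 6 of 16 (22.3%, 32.2% and 32.4% of all genes), and DESeq2 called 3, 0 and 3 (11%, 22.7% and 22.7%). The median log2 fold change was 0.38 in Kat5 ko with 16 of 16 positive, -0.45 in Ep400 ko with 15 of 16 negative, and -0.92 between the knockouts with 16 negative. The 16 summed to 2711 to 3001 CPM in wildtype and to 2744, 4522 and 4095 in Kat5/1 to Kat5/3. In Ep400/1 to Ep400/3 they summed to 3054, 2339 and 1035. By this sum Kat5/1 lay within the wildtype range and Ep400/1 above it. Ep400/3 was the lowest library in all 16. Without Ep400/3 the Ep400 ko median was -0.12 with 6 positive, and the median between the knockouts was -0.58. Without Kat5/1 the Kat5 ko median was 0.56 and 9 of 16 passed, in a fit where 19.4% of all genes passed. Rrm1, the large subunit of ribonucleotide reductase, differed by 0.51 (adjusted p = 0.104) in Kat5 ko and -0.06 in Ep400 ko, and Mcm6 by 0.08 and -0.13.

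**Figure D4:**
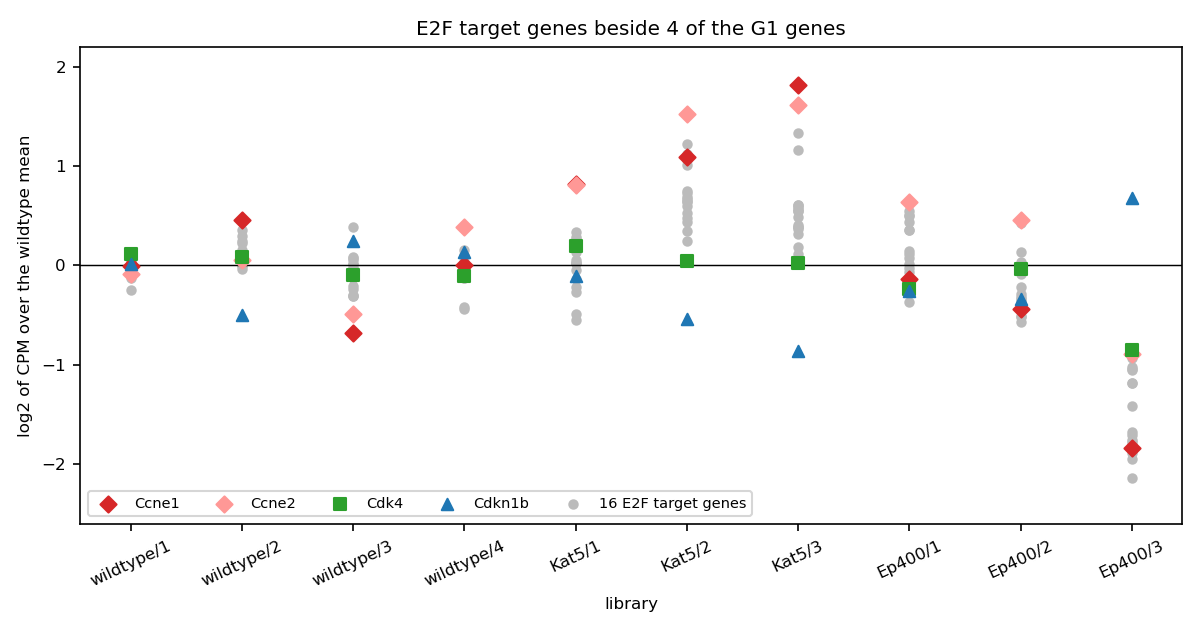
Log2 of the CPM over the wildtype mean in each library for the 16 E2F targets (grey) and for Ccne1, Ccne2, Cdk4 and Cdkn1b (coloured). Ep400/3 lies lowest in all grey lines, and Cdkn1b is at its highest there, whereas Kat5/2 and Kat5/3 hold the highest values of Ccne1, Ccne2 and most E2F targets.

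Of 8 proliferation markers, 1 fell in Ep400 ko, where 5.72% of all genes fell. This was Top2a, which encodes the topoisomerase that untangles chromosomes. It had 522.9, 518.5, 585.5 and 607.4 CPM in wildtype, 474.9, 780.1 and 676.9 in Kat5 ko, and 406.4, 328.8 and 260.2 in Ep400 ko (-0.75, SE 0.181, adjusted p = 0.0294, kept in 2 of 7 fits that left out a library and 0.0717 against its chromosome). The list median was 0.30 in Kat5 ko, with 0 calls by edgeR and 1 by DESeq2, and -0.55 in Ep400 ko. Their summed level was 1590 to 1720 CPM in wildtype, 1840 to 2280 in Kat5 ko and 885 to 1500 in Ep400 ko, without overlap between groups. This sum is weighted towards abundant genes such as Top2a. Gene by gene, 3 of 8 had every Kat5 ko clone above the wildtype range, against 9.67% of all genes. In Ep400 ko 2 of 8 lay below that range in every clone, against 14.1%. By the study's counts of mitotic cells and of cells stained for phosphohistone H3, both knockouts had fewer than wildtype. Its crystal violet staining also gave less growth in both. Those assays measured cells, unlike the RNA levels here. The part of these proliferation markers in the differences of Ccne1, Ccne2 and Cdk6 was not tested.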

How the data were processed

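RNA of 10 O9-1 cultures and clones was sequenced by the study as poly-A selected, stranded libraries. The deposited table holds raw read counts per gene, not normalized. The submitters' processing notes name bcl2fastq 2.20, STAR 2.7.3, the mm10 build, R 4.2.1 and DESeq2 1.36.0. The counting tool and its strand setting are not given in the sources used here, so reads of genes that overlap on opposite strands (Ccnd1 with Oraov1, Ccnd2 with 9330179D12Rik, Ccnd3 with Bysl, Ccne2 with Ints8, Cdk4 with Tspan31) may be mixed. The deposited normalized tables were not used.

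Each comparison was fitted on its own libraries with edgeR 4.0.16 in R 4.3.3 (filterByExpr, TMM, glmQLFit with robust moderation, glmQLFTest), with Benjamini-Hochberg adjustment over all genes tested and a threshold of 0.05. Robust moderation was chosen after seeing the data, and the plain form was run as an alternative. Confidence intervals are 95% from these fits. Levels per kb used exon lengths of GENCODE M21 on GRCm38, and correlations used log2(CPM + 0.5). A chromosome shift is the median log2 difference from wildtype of its genes at 5 CPM or more, and the chromosome offset removes it. Count intervals and floors (3 counts) cover counting error only. Alternatives were DESeq2 1.42.0, other scaling and filters, 1 fit of all 10 libraries, the replicate number as a block, the chromosome offset and leaving out each library. The code was tested on simulated data. Figures were drawn with Python 3.11.15 and matplotlib 3.10.9.

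The members and gene lists were chosen with earlier results of these data known. Of each list, the members that passed in either knockout against wildtype were named, at most 5, or the 2 with the highest mean count where none passed, besides Cdkn1a, Cdkn1c, Cdkn2c, Cdkn2d, Rb1, Rbl1, Rbl2, E2f1 and Cdk2 in any case. For a member that passed, the 3 genes most correlated with it were named. Replicates of one group were never within counting noise of each other (chi-square over its degrees of freedom, 27.3 to 261).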

Additional observations from a re-analysis of the deposited data

Results flagged for a closer look

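Ccnd2 in wildtype/3 lay apart from the other wildtype libraries. On the log2(CPM + 0.5) scale its gap to the nearest library was 0.877 of the range of the group, above Dixon's critical value for 4 samples, a limit that chance passes in about 1 group of 20. The library had 0.1305 CPM against 20.98 to 34.76 in the others.

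The direct test of Ep400 ko against Kat5 ko called the following genes with all 6 libraries, but the calls of Ccne1, Cdc25a and Ring1 were lost in 5 of 6 fits that left out a library, and those of Cdkn1c and Dmrta1 in 4 of 6. At a mean count of at least 100, Cdc25a (adjusted p = 0.0533) and Ccne1 (0.0559) did not pass. Ccne1 was lower in Ep400 ko (log2 fold change -1.96, adjusted p = 0.05 by edgeR), and so was Cdc25a (-1.46, adjusted p = 0.0464). Cdkn1c was higher in Ep400 ko (3.48, adjusted p = 0.0271), as were Ring1 (1.23, adjusted p = 0.0466) and Dmrta1 (4.83, adjusted p = 0.0271).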

How the results depend on the processing

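Over all genes, the 84 calls in Kat5 ko against wildtype (28.6% higher) became 1475 with DESeq2 (44.3% higher), 286 without a filter on low counts (35.3%) and 27 in a single fit of all libraries (18.5%). In Ep400 ko 1899 (58.3% higher) became 3131 with DESeq2 (53.5%). Between the knockouts 958 (59.8% higher) became 3067 with DESeq2 (54.2%), 1445 without a filter (58.9%), 536 at a mean count of at least 100 (65.1%) and 3555 in a single fit (52%). Leaving out 1 library gave 1 to 2654 (without wildtype/1 or wildtype/4, without Kat5/1), 804 to 2020 and 3 to 2537 (without Ep400/3, without Kat5/1). The cause was not tested.

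The members called in Kat5 ko (0) became 3 with DESeq2 and 1 without a filter. The 1 in Ep400 ko, Cdk6, became 0 in a single fit. Between the knockouts 1 became 4 with DESeq2, 2 without a filter, 3 in a single fit, and 0 with RLE size factors, with library size alone, at a mean count of at least 100 and with the chromosome offset. Leaving out 1 library gave 0 to 2 in each comparison.

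The labels number the replicates, but same-numbered libraries did not deviate together (residual correlations -0.114 to 0.226, in no comparison all above 0.1), so the numbers do not pair them. With the replicate block all genes called were 0 in Kat5 ko, 168 in Ep400 ko (59.5% higher) and 213 between the knockouts (81.2% higher), and 0 members in each (Cdk6 adjusted p = 0.0909, Ccne1 0.0965). The block also gave 0 for every list with a call in the main analysis, except the neighbours of Cdkn2a between the knockouts, and turned Cdkn1a to -0.152 in Kat5 ko and 0.0614 between the knockouts, and Cdkn2d to -0.0416 in Ep400 ko.

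For the lists in Kat5 ko, the 1 call among CDK inhibitors became 0 with library size alone, at a mean count of at least 100, without robust moderation and with the chromosome offset. The 1 among other cyclins and kinases became 2 with DESeq2 and 0 in a single fit and with the chromosome offset. DESeq2 gave 4 for RB and E2F, 3 for E2F targets and 1 for proliferation. In Ep400 ko, proliferation became 0 with the chromosome offset, regulators of the locus 2 with DESeq2 and without a filter, and neighbours 1 at a mean count of at least 100. Between the knockouts DESeq2 gave 2 CDK inhibitors, 4 RB and E2F, 3 other cyclins, 1 turnover, 3 E2F targets, 4 proliferation and 2 neighbours, and a single fit gave 2, 5, 3, 1, 3, 6 and 2 of these and 5 regulators. Without a filter there were 2 RB and E2F, 1 turnover, 2 proliferation, 4 regulators and 3 neighbours. A mean count of at least 100 gave 0 CDK inhibitors, other cyclins and neighbours and 1 regulator, library size alone 1 regulator, and the chromosome offset 1 RB and E2F and 1 turnover.

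Leaving out 1 library gave, in Kat5 ko, 0 to 3 CDK inhibitors, 0 to 4 RB and E2F, 0 to 3 other cyclins, 0 to 1 turnover, 0 to 9 E2F targets, 0 to 1 proliferation, 0 to 2 regulators and 0 to 1 neighbours. In Ep400 ko these were 1 to 1, 0 to 2, 0 to 1, 0 to 1, 0 to 0, 0 to 3, 0 to 3 and 0 to 3, and between the knockouts 0 to 2, 0 to 1, 0 to 2, 0 to 1, 0 to 1, 0 to 2, 0 to 5 and 0 to 2.

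Differences near 0 changed sign. The chromosome offset gave, in Kat5 ko, Cdk4 -0.00676, Rbl1 -0.0562 and E2f1 -0.00127, in Ep400 ko Ccnd3 0.0785, Cdkn1a 0.143 and Cdkn2d -0.0454, and between the knockouts Skp1a 0.194. Library size alone gave Cdkn1a -0.0255, 0.0178 and 0.0432 in the 3 comparisons and Ccnd1 0.0386 between the knockouts, and a mean count of at least 100 gave Cdkn1a 0.00244 in Ep400 ko. Leaving out 1 library gave, in Kat5 ko, Cdk6 -0.0698 to 0.706, Ep400 -0.0426 to 0.284, Cdkn1a -0.384 to 0.345, Cdkn2c -0.70 to 0.0812, E2f4 -0.155 to 0.301 and Mcm6 -0.0544 to 0.326. In Ep400 ko it gave Ccnd3 -0.25 to 0.16, Ccne2 -0.0696 to 0.54, Cdkn1b -0.30 to 0.26, Cdkn1a -0.0591 to 0.0217, Cdkn2d -0.0926 to 0.122, Rbl2 -0.0262 to 0.19, Rrm1 -0.45 to 0.23 and Mcm6 -0.46 to 0.20, and between the knockouts Ccnd1 -0.47 to 0.24, Cdkn1a -0.41 to 0.32 and Mcm6 -0.59 to 0.0731. Cdkn2a and Cdkn2b were too low for a test under most settings, and 3 counts was taken as the floor.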
